A study of Mus musculus with 4 samples.

Results

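The genes described here encode the 4 alpha-actinins (Actn1, Actn2, Actn3 and Actn4), the 3 calsarcins (Myoz1, Myoz2 and Myoz3) and the Z-disc anchors Ldb3, Tcap and Csrp3. They are 10 of the 51826 rows of a table of gene expression in mouse quadriceps, and they were chosen by gene symbol, each on a single row. All 10 had enough counts to be among the 16120 genes tested. The list was proposed with the fold changes of this comparison known, so their values describe them and are not independent evidence.

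PolyA RNA was sequenced from the quadriceps of 4 sedentary male mice at about 20 weeks of age on standard chow, 2 WT and 2 Mef2dα2 Eko mice in the C57BL6/J background, with 1 library per mouse. Mef2dα2 Eko mice lack the muscle-specific α2 exon of Mef2d, which encodes a MEF2 transcription factor, on both alleles in every tissue, after CRISPR-Cas9 deletion in embryos. The ubiquitous α1 exon, with which α2 is mutually exclusive, was left in place. The study describes the sequenced mice as littermates. Whether these mice came from 1 founder line or several is not given in the sources used here. The study asked how deleting the exon alters gene expression in muscle.

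Alpha-actinins are rod-shaped proteins that crosslink actin filaments, and in striated muscle they tie the thin filaments of neighbouring sarcomeres together at the Z-disc. ACTN2 is made in all striated muscle fibres and ACTN3 mainly in fast glycolytic fibres, while ACTN1 and ACTN4 serve the cytoskeleton of nonmuscle cells. Calsarcins, also called myozenins or FATZ proteins, bind alpha-actinin and the phosphatase calcineurin at the Z-disc. Myoz1 and Myoz3 belong mainly to fast muscle and Myoz2 to slow muscle and heart.

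Total expected counts, the number of reads RSEM assigned to genes, were between 72626757 and 85176059 per library. Levels are given as CPM, the count scaled to the size of the library with TMM factors, in the order WT replicate 1, WT replicate 2, Mef2dα2 Eko replicate 1 and Mef2dα2 Eko replicate 2. A level of 3 counts, taken as the smallest a library can show, was 0.0420 CPM at most, which covers counting error only. The skeletal muscle markers Ckm and Acta1 were at 13000 CPM or more and 20820 CPM or more in every library. WT replicate 1 stood apart, since its counts differed from those of WT replicate 2 with a chi-square per degree of freedom of 148, against 35.5 between WT replicate 2 and Mef2dα2 Eko replicate 1. It also had the lowest Myh7 (113 CPM against 339 in WT replicate 2) and the highest summed adipocyte markers (81.6 CPM against 31.5). Mef2d itself, counted over all its exons, was at 259, 227, 252 and 241 CPM, and counts of the whole gene do not check the deletion of 1 exon.

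Per kb of transcript, Actn3, Tcap and Myoz1 were the most abundant of the 10 genes. Over the WT mice, Actn3 was at 2077 ± 70.7 CPM per kb (SD, n = 2 mice), Tcap at 1778 ± 13.1, Myoz1 at 1031 ± 65.9 and Ldb3 at 316 ± 35.6. Actn2 followed at 162 ± 26.6 and Myoz2 at 33.5 ± 0.236 CPM per kb. Myoz3 (12.3 ± 0.550), Csrp3 (12.0 ± 1.84), Actn4 (6.51 ± 0.759) and Actn1 (1.64 ± 0.0399) made up the low end. Myoz3 and Csrp3 did not differ beyond their spread in WT mice, and the other neighbours in this order did not overlap. In Mef2dα2 Eko mice, the order of the means was unchanged, but Csrp3 (10.8 and 5.55 CPM per kb) overlapped Actn4 (5.999 and 7.527 CPM per kb).

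**Figure D1:**
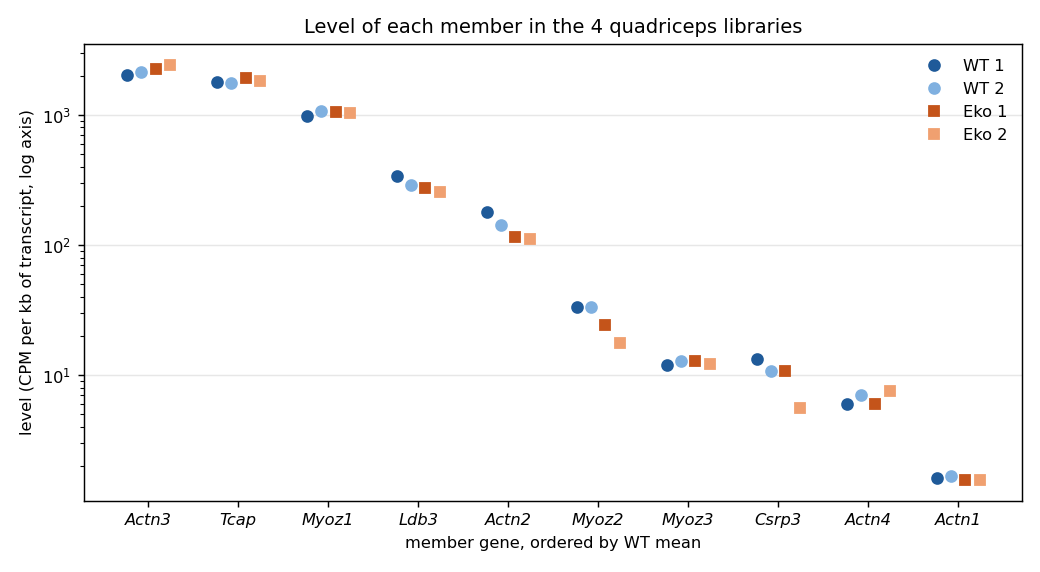
Level of each of the 10 genes in each library, in CPM per kb of transcript on a log axis, with genes ordered by their WT mean. Circles are WT and squares are Mef2dα2 Eko libraries. The 4 points of most genes lie close together, while both Mef2dα2 Eko points of Actn2 and Myoz2, and 1 of Csrp3, sit clearly below the WT points.

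The genotypes were compared by the quasi-likelihood method of edgeR, adjusted over all genes by Benjamini-Hochberg, and 0 of the 10 genes reached an adjusted p below 0.05, where 0.416% of all genes tested did. At an unadjusted p below 0.05 there were 3 of the 10 (Actn2, Myoz2 and Ldb3), all lower in Mef2dα2 Eko mice, beside 11.6% of all genes. DESeq2, the tool of the study, called 2 of the 10, Actn2 and Myoz2, and 1.97% of all genes. The median log2 fold change of the 10 genes was -0.02, beside -0.01 for all genes. In 4 of the 10 genes both Mef2dα2 Eko mice lay below both WT mice (23% of all genes) and in 2 they lay above (20.8% of all genes). With 2 mice against 2, a two-sided exact permutation test cannot give a p below 0.333, so adjusted p-values rest on edgeR's shared estimate of the spread.

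**Figure D2:**
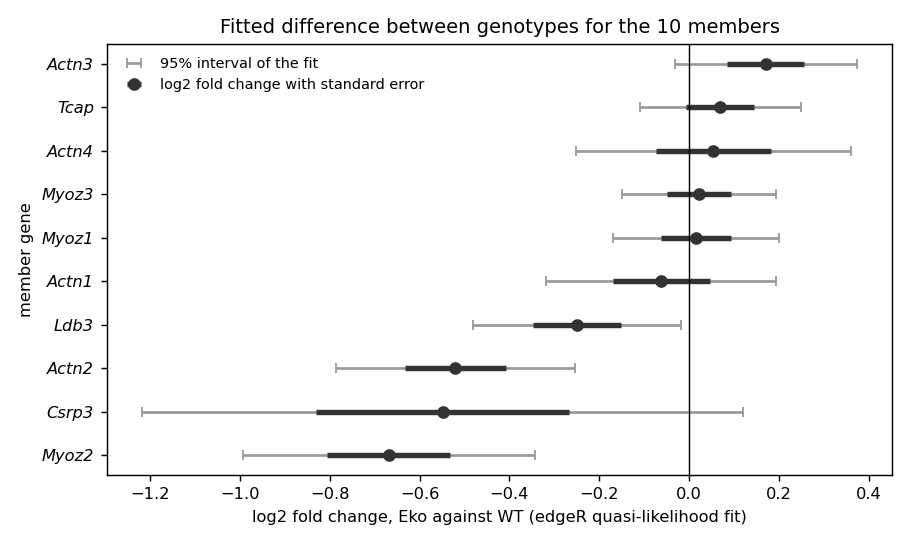
Log2 fold change of Mef2dα2 Eko against WT mice for each of the 10 genes from the edgeR fit, with the SE (thick bars) and the unadjusted 95% interval of the fit (thin bars). Actn2, Myoz2 and Ldb3 have intervals below 0, Csrp3 has the widest interval, and the others lie between -0.06 and 0.17.

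Actn2 and Myoz2 had the lowest p-values of the 10 genes, and MEF2 factors bind a known DNA motif, so the sequence before their start sites is shown. RefSeq promoters on GRCm38.p6 were found for 6 of the 10 genes (Actn1, Actn2, Actn4, Myoz2, Ldb3 and Csrp3). Each sequence is the 250 bases before the RefSeq start, read 5′ to 3′ on the minus strand. Those of Actn2 are at chr13:12340733-12340982 and those of Myoz2 at chr3:123034988-123035237. The GENCODE transcript of each gene starts 28 bases further upstream, within the printed stretch. Capitals mark matches to CACGTG in Actn2 and to the MEF2 motif in Myoz2.
Actn2: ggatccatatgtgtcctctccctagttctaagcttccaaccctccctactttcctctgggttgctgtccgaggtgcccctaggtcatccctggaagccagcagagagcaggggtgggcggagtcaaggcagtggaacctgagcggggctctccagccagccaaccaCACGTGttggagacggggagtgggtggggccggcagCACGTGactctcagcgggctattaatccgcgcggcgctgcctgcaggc
Myoz2: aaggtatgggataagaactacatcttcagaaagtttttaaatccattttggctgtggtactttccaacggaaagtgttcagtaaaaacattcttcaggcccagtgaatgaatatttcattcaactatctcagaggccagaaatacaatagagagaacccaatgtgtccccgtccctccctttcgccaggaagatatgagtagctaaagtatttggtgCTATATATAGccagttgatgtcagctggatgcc

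The MEF2 motif was searched on both strands from 250 bases before to 50 after each start. Of the 6 genes with a promoter, Myoz2 alone held a match, CTATATATAG from base -33 to base -24 counted from the RefSeq start, as did 3.19% of 32851 promoters of that length. The GENCODE start of Myoz2 lies inside this match, and both E-boxes of Myoz2 lie downstream of that start. The same window of Myoz2 held E-boxes, the CANNTG motif of myogenic factors, at bases -22 to -17 and -12 to -7, and that of Actn2 held 3. An E-box was present in 72.3% of all promoters. The E-boxes of Actn2 at bases -84 to -79 and -48 to -43 read CACGTG, which 7.15% of all promoters hold and which was looked for after the sequence was seen. CACGTG is also a match to CANNTG, so the motifs overlap. The windows were also searched for TATAAA and for CATTCC, which 13.6% and 14.7% of all promoters hold. Of the 6 genes, only Actn4 held either, a CATTCC. The MEF2 match of Myoz2 contains TATATA, so its letters do not tell a MEF2 site from a TATA-like element. A match is a description of the letters and not of binding.

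Actn2 (ENSMUSG00000052374.16) spans bases 12269426 to 12340760 of chromosome 13 (GRCm38, minus strand), and its main transcript has 21 exons and 3013 bp. It had 41325 and 34889 counts in the WT pair and 29779 and 23953 counts in the Mef2dα2 Eko pair, or 545, 431, 345 and 335 CPM. Both Mef2dα2 Eko mice lay below both WT mice, and the WT mice differed more from each other than the Mef2dα2 Eko mice did. The mean level stood at 488 ± 80.0 CPM (SD, n = 2 mice) for WT and 340.2 ± 7.42 CPM (SD, n = 2) for Mef2dα2 Eko, or 69.7% of WT. On the log2 scale this was a fold change of -0.52 (SE 0.11, 95% interval from -0.79 to -0.26, edgeR adjusted p = 0.170), and Actn2 ranked 230 among 16120 genes by p. The 4 differences between a Mef2dα2 Eko and a WT mouse ran from -0.70 to -0.32 on the log2 scale. The adjusted p was 0.00106 with DESeq2 and 0.216 with edgeR after a correction for GC content. It was 3.52e-08 when edgeR was run without the filter on low counts, a setting that called 799 genes, against 67 in the main test. The SE of Actn2 was 0.08 there at the same log2 fold change, so the small p comes with a smaller fitted spread. Without WT replicate 1 the log2 fold change was -0.34, and without WT replicate 2 it was -0.66.

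Actn3 (ENSMUSG00000006457.4, chromosome 19 from 4861216 to 4877909) was higher in both Mef2dα2 Eko mice, also without passing the test. It was at 5853, 6142, 6493 and 7005 CPM, so both Mef2dα2 Eko mice lay above both WT mice. Its mean level stood at 5998 ± 204 CPM (SD, n = 2 mice) for WT and 6749 ± 362 CPM (SD, n = 2) for Mef2dα2 Eko (log2 fold change 0.17, SE 0.09, 95% interval from -0.03 to 0.37, edgeR adjusted p = 0.501). Actn3 alone held 0.579% and 0.623% of the library in WT and 0.657% and 0.690% in Mef2dα2 Eko quadriceps. Per kb of transcript, Actn2 and Actn3 together summed to 2239 ± 44.1 CPM (SD, n = 2 mice) for WT and 2451 ± 123 CPM (SD, n = 2) for Mef2dα2 Eko, so the sum was 109% of the WT mean while Actn2 was lower.

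The ratio of Actn2 to Actn3 within a library does not depend on how libraries are scaled to each other. Per kb, Actn3 was 11.2 and 14.9 times as abundant as Actn2 in the WT mice and 19.6 and 21.8 times as abundant in the Mef2dα2 Eko mice. Actn2 thus made up 8.18% and 6.31% of the sarcomeric alpha-actinin transcripts in WT, against 4.85% and 4.38% in Mef2dα2 Eko mice. On the log2 scale of counts, the ratio was -3.63 ± 0.29 (SD, n = 2 mice) for WT and -4.31 ± 0.11 (SD, n = 2) for Mef2dα2 Eko, a difference of -0.68. The groups did not overlap, and with 1 mouse left out in turn the difference ran from -0.88 to -0.48.

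The nonmuscle alpha-actinins were scarce. Actn1 (ENSMUSG00000015143.15) was at 6.01, 6.22, 5.87 and 5.85 CPM, with both Mef2dα2 Eko mice below both WT mice by a small margin (log2 fold change -0.06, 95% interval from -0.32 to 0.19, edgeR adjusted p = 0.870). Actn4 (ENSMUSG00000054808.15) was at 23.2, 27.3, 23.3 and 29.2 CPM, and the groups overlapped (log2 fold change 0.05, 95% interval from -0.25 to 0.36, edgeR adjusted p = 0.908). Actn1 overlaps Gm47766 and Gm47767 and Actn4 overlaps Capn12 on the other strand.

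Among the calsarcins, Myoz2 was lower in both Mef2dα2 Eko mice without passing the adjusted test, while Myoz1 and Myoz3 lay at about the same level. Myoz2 (ENSMUSG00000028116.13, chromosome 3 from 123006206 to 123035015, 6 exons), whose promoter with the MEF2 match is printed above, had 2984 and 3212 counts in the WT pair and 2470 and 1504 counts in the Mef2dα2 Eko pair. That is 39.3, 39.7, 28.6 and 21.03 CPM, with the WT mice close together and both Mef2dα2 Eko mice below them. The mean level stood at 39.5 ± 0.279 CPM (SD, n = 2 mice) for WT and 24.8 ± 5.39 CPM (SD, n = 2) for Mef2dα2 Eko, or 62.9% of WT. On the log2 scale this was a fold change of -0.67 (SE 0.14, 95% interval from -0.99 to -0.34, edgeR adjusted p = 0.154), and Myoz2 ranked 197 among all genes by p. The adjusted p was 0.000766 with DESeq2 and 9.12e-11 with edgeR without the filter on low counts. That setting called 799 genes, against 67 in the main test, and the SE of Myoz2 was 0.09 there at the same log2 fold change. Without Mef2dα2 Eko replicate 1 the log2 fold change was -0.90, and without Mef2dα2 Eko replicate 2 it was -0.46.

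Myoz1 (ENSMUSG00000068697.7, chromosome 14 from 20649107 to 20656540) is the main calsarcin of this muscle, at 1270, 1390, 1345 and 1342 CPM, with the groups overlapping. Its log2 fold change was 0.02 (95% interval from -0.17 to 0.20, edgeR adjusted p = 0.959). Myoz3 (ENSMUSG00000049173.8) was at 41.1, 43.8, 44.1 and 42.0 CPM, with a log2 fold change of 0.02 (95% interval from -0.15 to 0.19, edgeR adjusted p = 0.938). Myoz2 and Myoz3 thus had like counts in WT mice, but Myoz3 has a longer transcript (3436 bp against 1181 bp) and was lower per kb. The 3 calsarcins together summed to 1077 ± 66.6 CPM per kb (SD, n = 2 mice) for WT and 1076 ± 6.55 CPM per kb (SD, n = 2) for Mef2dα2 Eko.

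Within a library, Myoz1 was 29.6 and 32.0 times as abundant as Myoz2 per kb in the WT mice and 43.0 and 58.5 times as abundant in the Mef2dα2 Eko mice. The log2 ratio of Myoz2 to Myoz1 counts was -5.07 ± 0.08 (SD, n = 2 mice) for WT and -5.77 ± 0.31 (SD, n = 2) for Mef2dα2 Eko, a difference of -0.70. With 1 mouse left out in turn it ran from -0.93 to -0.48. Both ratios were picked because they hold Actn2 and Myoz2, and Myoz3, the least abundant calsarcin per kb in WT mice, had a log2 fold change of 0.02.

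**Figure D3:**
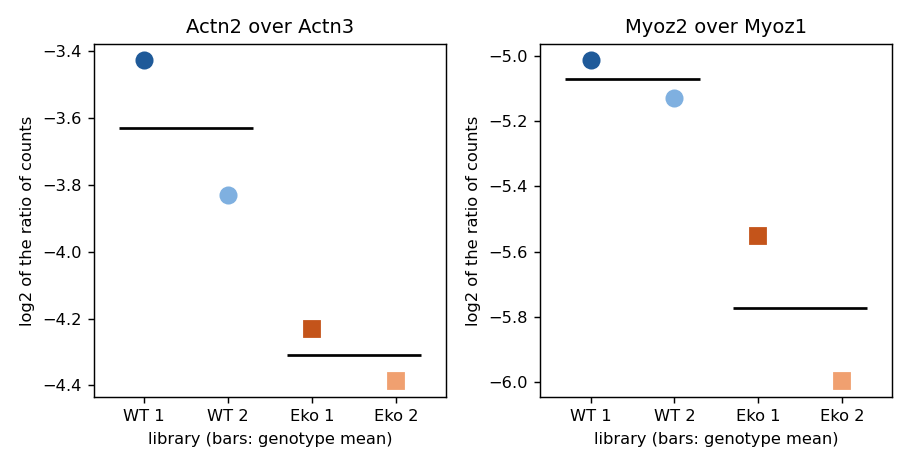
Log2 ratio of the counts of Actn2 to Actn3 (left) and of Myoz2 to Myoz1 (right) in each library, with a horizontal bar at each genotype's mean. In both panels the Mef2dα2 Eko squares lie below the WT circles, at means of -4.31 against -3.63 and of -5.77 against -5.07.

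Of the anchors, Ldb3 was lower and Tcap slightly higher in both Mef2dα2 Eko mice, and Csrp3 was low in 1 of them. Ldb3 (ENSMUSG00000021798.14, chromosome 14 from 34526603 to 34588682) encodes ZASP or cypher, a PDZ-LIM protein that binds alpha-actinin, and was at 1747, 1489, 1405 and 1315 CPM. Both Mef2dα2 Eko mice lay below both WT mice, by a margin smaller than the gap between the WT mice. The mean level stood at 1618 ± 182 CPM (SD, n = 2 mice) for WT and 1360 ± 63.6 CPM (SD, n = 2) for Mef2dα2 Eko (log2 fold change -0.25, SE 0.10, edgeR adjusted p = 0.4002). It was -0.13 without WT replicate 1 and -0.35 without WT replicate 2, and no setting brought Ldb3 to an adjusted p below 0.05.

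Tcap (ENSMUSG00000007877.2, chromosome 11 from 98383811 to 98384953) encodes telethonin, which caps the end of titin at the Z-disc. It was at 1695, 1677, 1828 and 1710 CPM, so both Mef2dα2 Eko mice lay above both WT mice, 1 of them by little. Its log2 fold change was 0.07 (95% interval from -0.11 to 0.25, edgeR adjusted p = 0.773) and ran from 0.03 to 0.16 over the 14 alternatives.

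Csrp3 (ENSMUSG00000030470.15, chromosome 7 from 48830398 to 48848033) encodes muscle LIM protein, which is abundant in heart and slow muscle. It had 908 and 779 counts in the WT pair and 837 and 357 counts in the Mef2dα2 Eko pair, or 12.0, 9.63, 9.71 and 4.99 CPM. Mef2dα2 Eko replicate 1 lay with WT replicate 2, and Mef2dα2 Eko replicate 2 alone was low. The difference of 0.96 between the Mef2dα2 Eko mice on the log2 scale was larger than that of 95% of all genes. The log2 fold change of Csrp3 was -0.55 (SE 0.28, edgeR adjusted p = 0.510), within the spread between mice. It was -0.15 without Mef2dα2 Eko replicate 2 and -1.10 without Mef2dα2 Eko replicate 1.

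**Figure D4:**
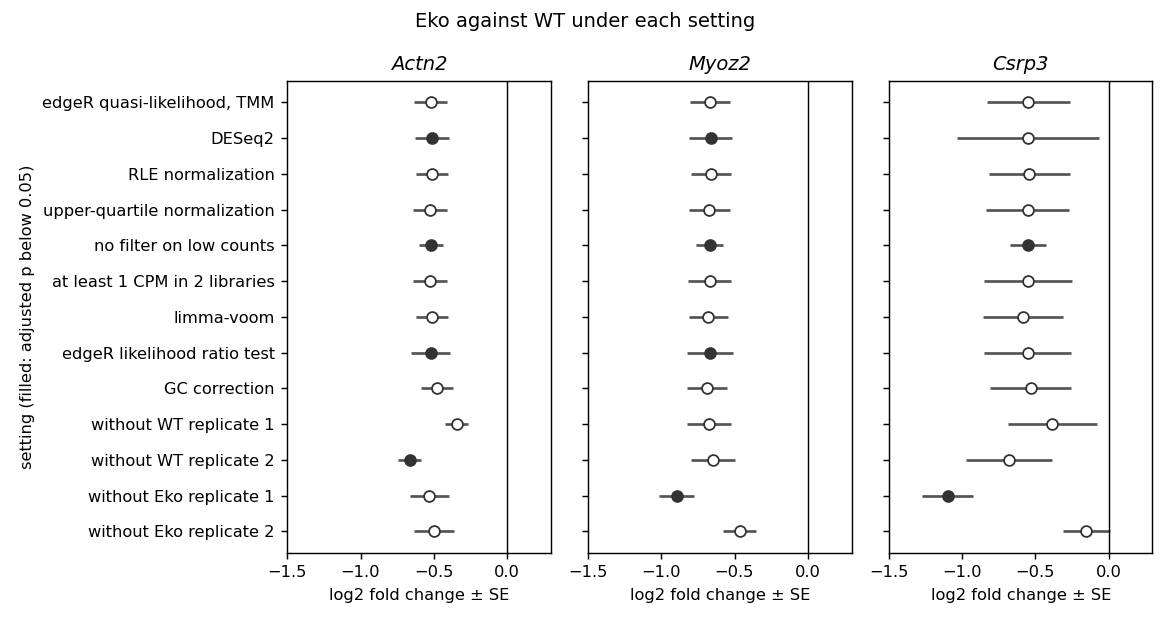
Log2 fold change with its SE of Actn2, Myoz2 and Csrp3 under each test, normalization and filter and with each mouse left out. Filled points have an adjusted p below 0.05. With 1 mouse left out, 1 genotype has a single mouse and so no spread of its own. All points lie below 0, and Csrp3 moves most with the mouse left out, from -1.10 to -0.15.

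Other components of the Z-disc were read from a list of 35 genes, all of which were tested. By edgeR, 1 of the 35, Bag3, was lower in Mef2dα2 Eko mice and 0 were higher at an adjusted p below 0.05, beside 0.416% of all genes. Cryab, named here after its values were seen, lay just over that threshold, at 570, 578.5, 403 and 349 CPM (log2 fold change -0.61, SE 0.09, edgeR adjusted p = 0.0501). At an unadjusted p below 0.05, 9 of the 35 were lower and 1 higher, beside 1034 lower and 830 higher of all 16120 genes. The median log2 fold change of the list was -0.04. Bag3, a co-chaperone that clears damaged filamin at the Z-disc, was at 183, 176, 125 and 130.5 CPM, with both Mef2dα2 Eko mice well below both WT mice. Its log2 fold change was -0.49 (SE 0.07, edgeR adjusted p = 0.0480) and ran from -0.53 to -0.44 over the 14 alternatives. Bag3 lost the call with RLE normalization (edgeR adjusted p = 0.0503), with at least 1 CPM in 2 libraries (0.0556) and after a correction for GC content (0.0712).

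Ankrd2, an ankyrin repeat protein that responds to stretch and is richer in slow fibres, had the lowest log2 fold change of the 35. It was at 69.1, 37.9, 32.3 and 24.3 CPM, which put both Mef2dα2 Eko mice below both WT mice although WT replicate 1 was far above the rest (log2 fold change -0.92, SE 0.27, edgeR adjusted p = 0.283). Ankrd2 passed the threshold under 6 of 14 alternatives, 2 of them with 1 mouse left out. Its log2 fold change was -0.42 without WT replicate 1 and -1.27 without WT replicate 2. Neb, which encodes the thin filament protein nebulin, had the highest, at 6953, 6752, 7589 and 8615 CPM (log2 fold change 0.24, SE 0.09, edgeR adjusted p = 0.4002). Its transcript is long, at 22489 bp. Over 15636 genes, log2 fold change rose with transcript length (Spearman rho 0.186) and fell with GC content (rho -0.22). The part of these trends in single genes was not tested. In 13 of the 35 genes both Mef2dα2 Eko mice lay below both WT mice, against 23% of all genes, and in 6 above, against 20.8% of all genes.

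Calsarcins bind calcineurin, so its subunits and regulators were read as a list of 11 genes. Of these, 0 passed an adjusted p of 0.05 with edgeR and 1 was called by DESeq2, beside 0.416% and 1.97% of all genes. At an unadjusted p below 0.05, 1 was lower and 1 higher, beside 11.6% of all genes in either direction. The median log2 fold change of the 11 was -0.01. The lower gene was Rcan2, a regulator of calcineurin named here after its values were seen, at 93.4, 79.7, 61.4 and 62.6 CPM, with both Mef2dα2 Eko mice below both WT mice (log2 fold change -0.48, SE 0.09, edgeR adjusted p = 0.118). Rcan1, an inhibitor of calcineurin that NFAT activity induces, had the lowest log2 fold change, at 63.0, 120, 50.1 and 66.0 CPM, where WT replicate 2 was far above the others and the groups overlapped (log2 fold change -0.66, SE 0.28, edgeR adjusted p = 0.436). It was -1.05 without WT replicate 1 and -0.10 without WT replicate 2. Ppp3ca, a catalytic subunit of calcineurin, was the highest, at 212, 255, 279 and 281 CPM (log2 fold change 0.26, SE 0.10, edgeR adjusted p = 0.367). It was 0.14 without WT replicate 1 and 0.42 without WT replicate 2.

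Actn2 is made in all fibres, Myoz2 and Csrp3 are richer in slow fibres and Actn3 in fast ones, so the levels are set beside the markers of fibre type. Of 10 slow-fibre and 12 fast-fibre markers, 0 passed an adjusted p of 0.05 with edgeR. At an unadjusted p below 0.05 there were 0 slow and 2 fast markers, both lower, beside 11.6% of all genes. DESeq2 called 2 of the 22, beside 1.97% of all genes. The slow-fibre marker Myh7, the slow myosin heavy chain, was at 113, 339, 237 and 145 CPM, so the groups overlapped and the WT mice lay at the extremes. Actn2 and Csrp3 were highest in WT replicate 1, the mouse with the lowest Myh7, Tnnt1, Tnni1, Tnnc1 and Tpm3, and Myoz2 was alike in both WT mice. The slow markers Myl2 (18.5 CPM), Myl3 (44.2), Myl6b (3.20), Atp2a2 (126.5) and, by little, Casq2 (19.5) were instead lowest in Mef2dα2 Eko replicate 2. Actn2, Myoz2 and Csrp3 were lowest in that mouse as well. The summed slow-fibre markers were at 439 and 989 CPM in the WT pair and 684 and 441 CPM in the Mef2dα2 Eko pair, and their median log2 fold change was -0.17. Atp2a2, the slow calcium pump, was the lowest of them at a log2 fold change of -0.59 (SE 0.28, edgeR adjusted p = 0.487), and Casq2, the slow calsequestrin, the highest at 0.18. Atp2a2 was at -0.98 without WT replicate 1 and at -0.03 without WT replicate 2, and Casq2 was at -0.02 without Mef2dα2 Eko replicate 1. In bulk muscle, fewer fibres of a type and less RNA per fibre cannot be told apart.

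Of the fast-fibre markers, the myosins Myh2 and Myh1 of the fast fibres with more mitochondria had an unadjusted p below 0.05. Myh2, of type IIa fibres, was at 1576, 1709, 1264 and 1041 CPM (log2 fold change -0.51, SE 0.11, edgeR adjusted p = 0.161), the lowest of the 12 fast markers. Myh2 had an adjusted p of 0.00045 with DESeq2, and without Mef2dα2 Eko replicate 1 its log2 fold change was -0.64. Myh1, of type IIx fibres, was at 4967, 3984, 3476 and 3121 CPM (log2 fold change -0.44, SE 0.12, edgeR adjusted p = 0.261). For both, as for Actn2 and Myoz2, the Mef2dα2 Eko mice lay below the WT mice. Myh4, of the fastest type IIb fibres, was at 64360 CPM in each WT mouse, against 65460 and 69590 CPM for Mef2dα2 Eko. The highest fast marker was the calcium buffer Pvalb, with a log2 fold change of 0.14, which was 0.01 without WT replicate 1 and 0.31 without WT replicate 2. Myh1 overlaps Myhas and Myh2 overlaps 9430073C21Rik on the other strand.

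**Figure D5:**
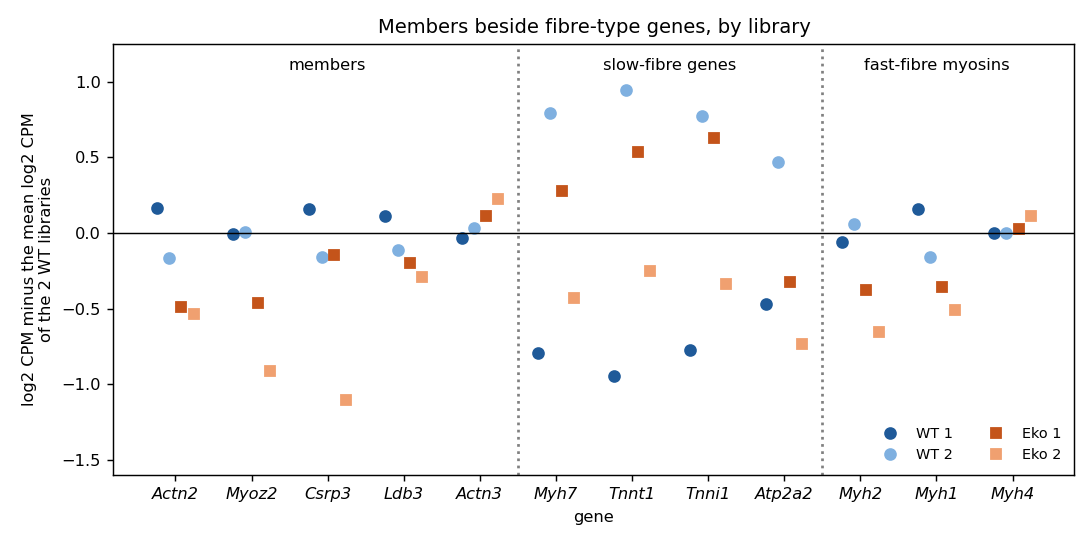
Log2 CPM of each library minus the mean of the WT libraries, for 5 of the Z-disc genes, 4 slow-fibre genes and 3 fast-fibre myosins. Circles are WT and squares are Mef2dα2 Eko libraries. The slow-fibre genes Myh7, Tnnt1 and Tnni1 are lowest in WT replicate 1, while Atp2a2 is lowest in Mef2dα2 Eko replicate 2, as are Actn2, Myoz2, Csrp3 and Ldb3. All 4 slow-fibre genes are highest in WT replicate 2, and Actn2 and Csrp3 in WT replicate 1. Both Mef2dα2 Eko libraries are below both WT libraries for Actn2, Myoz2, Ldb3, Myh2 and Myh1.

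The summed levels of macrophage and of adipocyte markers were lower in each Mef2dα2 Eko mouse than in either WT mouse. Of 6 macrophage markers, 0 passed an adjusted p of 0.05 with edgeR, and 4 were lower at an unadjusted p below 0.05 (11.6% of all genes, either direction). Their sum was 31.5 and 25.4 CPM in the WT pair and 22.9 and 16.2 CPM in the Mef2dα2 Eko pair, the same order of mice as for Actn2. The 6 adipocyte markers summed to 81.6 and 31.5 CPM in the WT pair and 26.5 and 11.5 CPM in the Mef2dα2 Eko pair. With edgeR, 4 of them were lower at an unadjusted p below 0.05, beside 11.6% of all genes in either direction, and 0 at an adjusted p below 0.05. Of the adipocyte markers, 5 were fitted lower, with a median log2 fold change of -1.14 for the 6 and Cfd lowest at -2.18 (SE 0.46, edgeR adjusted p = 0.162). Lep alone was fitted higher, at 0.21, and was at -1.82 without Mef2dα2 Eko replicate 1. The genotypes overlapped for Lep, Adipoq, Plin1, Cidec, Adgre1 and Mrc1. None of these markers was at 0 in any library, and their part in the levels of Actn2 was not tested. Without WT replicate 1, which had the most of both, the log2 fold change of Actn2 was -0.34 and that of Myoz2 was -0.67.

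The genes whose 4 levels were most like those of Actn2, by the distance between log2 CPM values centred on each gene's mean, were Alas1 (0.05), C3 (0.06), 2010300C02Rik (0.07), Cd74 (0.08) and Rom1 (0.08), where the median distance over all genes was 0.63. Alas1, the rate-limiting enzyme of heme synthesis, was at 115, 89.8, 74.6 and 72.7 CPM. Complement C3 (50.8, 42.1, 32.9 and 33.0 CPM) and Cd74 (25.9, 22.0, 16.6 and 16.2 CPM) encode a complement component and the invariant chain of MHC class II. For Myoz2, the nearest were Slc25a13 (0.05), Gins2 (0.08), Gm28875 (0.08), Galk1 (0.09) and Cds1 (0.09), against a median of 0.80. Of these, Gins2 was the most abundant at 12.3, 12.7, 8.57 and 6.71 CPM, and 3 of the 5 were below 1 CPM in every library. With 4 libraries in 2 genotypes, a short distance mostly means a like difference between genotypes. None of the 10 nearest genes had an adjusted p below 0.05 with edgeR, the lowest being 0.111 for Cd74.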

How the data were processed

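The authors aligned reads of polyA-selected quadriceps RNA to mm10 (GRCm38), with STAR 2.6.1a named in the submitters' processing notes, and used RSEM with an Ensembl GRCm38 annotation to estimate expected counts per gene. These expected counts were deposited without normalization, and 0 values had a fraction. The libraries were made with a stranded kit, and the strand setting of the counting is not given in the sources used here. RSEM divides reads that match several genes by a model, so counts of paralogues such as Actn2 and Actn3 depend on it.

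Genotypes, with 2 mice each, were tested by edgeR 4.0.16 (quasi-likelihood) in R 4.3.3 on genotype alone, after TMM normalization, the default filter on low counts and Benjamini-Hochberg adjustment at 0.05. Each library is 1 mouse, so p-values set the difference between genotypes against a spread between mice that edgeR estimates partly from all genes. A prior count of 0.125 enters each log2 fold change. Transcript length, GC content and positions came from GENCODE M21 on GRCm38, using the longest principal transcript. Alternatives used DESeq2 1.42.0, limma 3.58.1, other normalizations and filters, a correction for GC content, a replicate block, and leaving out each mouse. Leaving out 1 mouse leaves a single mouse in 1 genotype, so the spread within that genotype is not measured. The tests were tested on simulated data.

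The genes and lists were chosen with earlier results of these data known. Genes named are the 10 genes, list genes that passed the threshold or had the largest change in each direction, markers whose level is given, and the 5 genes nearest in pattern to Actn2 and to Myoz2. Rcan2 and Cryab were added after their values were seen.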

Additional observations from a re-analysis of the deposited data

How the results depend on the processing

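The log2 fold changes of Actn2 (-0.66 to -0.34), Myoz2 (-0.90 to -0.46), Csrp3, Ldb3, Actn3, Tcap and Actn1 kept their sign under all 14 alternatives, while Actn4 changed sign under 2 and Myoz1 and Myoz3 under 1 each, with no call. Actn2 passed the threshold under 5 of the 14, Myoz2 under 6 and Csrp3 under 2, each count including 1 fit with 1 mouse left out. In such a fit 1 genotype has a single mouse, so a call takes no account of the spread within it. The number of the 10 genes called rose from 0 to 2 with DESeq2, 3 without the filter on low counts, 2 with the likelihood ratio test, and 0 to 2 with 1 mouse left out. Over all genes, 67 were called in the edgeR quasi-likelihood test, 318 with DESeq2 (58.5% of them lower, against 74.6%), 799 without the filter, 23 with at least 1 CPM in 2 libraries, 312 with the likelihood ratio test, and 99 to 299 with 1 mouse left out.

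Of the 35 other Z-disc genes, 1 was called, against 3 with DESeq2, 0 with RLE normalization, 6 without the filter, 2 by limma-voom, 0 under a minimum of 1 CPM in 2 libraries, 4 with the likelihood ratio test, 0 after the GC correction and 1 to 3 with 1 mouse left out. Calcineurin genes called went from 0 to 1 with DESeq2, 3 without the filter, 1 with the likelihood ratio test and 0 to 2 with 1 mouse left out. Fibre-type markers called went from 0 to 2 with DESeq2, 5 without the filter, 1 with the likelihood ratio test and 0 to 3 with 1 mouse left out. The cause of these shifts was not tested. Lep, the highest adipocyte marker at 0.21, reversed to -1.82 without Mef2dα2 Eko replicate 1 and was 1.01 without Mef2dα2 Eko replicate 2. With 1 mouse left out, the difference in log2 ratio ran from -0.88 to -0.48 for Actn2 over Actn3 and from -0.93 to -0.48 for Myoz2 over Myoz1, and from summed counts it was -0.68 and -0.66.

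The labels number the mice but do not pair them, and deviations of same-numbered mice from their genotype's mean correlated at 0.091 over genes. With the replicate number as a block, 186 genes were called, with 2 of the 10 genes (Actn2, adjusted p = 0.0460, and Myoz2, 0.0389, from edgeR), 4 of the other Z-disc genes and 1 calcineurin gene. The block with the GC correction gave 182 genes, 1 of the 10 (Myoz2), 4 Z-disc genes and 1 calcineurin gene.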

Other observations

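The other cell types of the muscle were read from marker lists as well. With edgeR, 0 of 6 smooth muscle, 0 of 6 fibroblast and 0 of 6 endothelial markers had an adjusted p below 0.05. At an unadjusted p below 0.05 there were 1 smooth muscle marker, higher, and 2 fibroblast markers, lower, beside 11.6% of all genes. The summed smooth muscle markers were at 107 and 98.2 CPM in WT and at 102 and 113 CPM in Mef2dα2 Eko mice. The fibroblast markers summed to 381 and 412 CPM and to 441 and 341 CPM in the same order. The endothelial markers summed to 158 and 145 CPM in WT and to 138 and 159 CPM in Mef2dα2 Eko mice.

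Markers of regenerating or denervated fibres stayed low, with sums of 24.7 and 26.7 CPM in WT and of 20.3 and 27.3 CPM in Mef2dα2 Eko mice. Of the 7, 6 were tested and 0 had an adjusted or unadjusted p below 0.05 in the same edgeR test. Among the skeletal muscle markers, Mb, which encodes the oxygen store myoglobin, had the lowest log2 fold change, -0.50 (SE 0.10, edgeR adjusted p = 0.157), and passed the threshold under 7 of 14 alternatives, DESeq2 among them (adjusted p = 0.000355). It was at 1430, 1303, 1050 and 884 CPM, with both Mef2dα2 Eko mice below both WT mice, and overlaps Apol6 on the other strand.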
